A study of Homo sapiens with 16 samples.

Results

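The collagen genes were taken as every row of the gene count table whose symbol has the form COL, a number, A and a number, which gave 41 of 27037 genes. They comprised 11 genes of fibrillar collagens, 6 of basement membrane collagens, 10 of FACIT collagens, 4 of transmembrane collagens and 10 of other types. RNA had been sequenced from 16 samples of SK-N-BE(2)C, a human neuroblastoma line of adrenergic type that carries extra copies of MYCN, with 4 replicates in each of 4 groups. DMSO cells received the solvent alone, RA cells received 10 µM all-trans retinoic acid, PB cells received 1 µM palbociclib, which blocks CDK4 and CDK6, kinases that drive entry into S phase, and PB+RA cells received both agents at these doses. The study's methods give 5 days of treatment. All samples are of a single cell line grown in the same medium with serum, and replicates are cultures from other passages of it, per the study's methods.

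Collagens are proteins of the extracellular matrix in which 3 chains wind into a triple helix, so a working molecule often needs the products of several genes. Fibrillar collagens pack side by side into the fibres of connective tissue, and FACIT collagens sit on the surface of those fibres and link them to their surroundings. Basement membrane collagens form the sheets beneath epithelia and around vessels, muscle and nerve, while transmembrane collagens span the plasma membrane and can be shed from it. In the nervous system, collagens mark the matrix around peripheral nerves and some synapses, and transmembrane collagen XIII is known from the neuromuscular junction.

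Total counts ranged from 19515779 to 31620821 per sample. A gene with a count of 0 could lie at up to 0.0949 to 0.154 CPM (the count per 1000000 counts of the sample) from counting error alone. The line's label was compared with marker genes. All 7 adrenergic neuroblastoma markers were present, at 3500 to 8650 CPM summed per sample. Of 8 mesenchymal or fibroblast markers, 7 were analysed and summed to 706 to 813 CPM in DMSO, 689 to 817 CPM in RA, 838 to 900 CPM in PB and 767 to 800 CPM in PB+RA, with all 7 above 1 CPM in every group. THY1 made up most of this sum, with means of 504 CPM in DMSO and 469 CPM in RA. From DMSO to RA the mean of PDGFRA went from 1.31 to 4.75 CPM, that of DCN from 13.8 to 21.4 CPM, that of PDGFRB from 89.1 to 119 CPM and that of TWIST1 from 88.1 to 98.8 CPM, while LUM went from 44.8 to 22.1 CPM and SNAI2 from 18.5 to 16.3 CPM. In PB+RA these means were 2.25 CPM for PDGFRA, 8.9 for DCN, 75.2 for PDGFRB, 57.2 for TWIST1, 23.1 for LUM and 11.7 for SNAI2. In PB they were 1.13, 7.88, 68.1, 61.9, 77.9 and 7.98 CPM in the same order. The mean of THY1 was 648 CPM in PB and 604 CPM in PB+RA. Schwann cell markers summed to 18.4 to 54.6 CPM, with 2 of 5 below 1 CPM in each group, and endothelial markers to 0.0316 to 2.39 CPM, with all 3 below 1 CPM. Their part in the collagen values was not tested, and in bulk RNA fewer cells expressing a gene and less RNA per cell cannot be told apart. Samples with the same replicate number deviated together from their group means, as did some samples of different numbers. Where a fit with the replicate number as a block changed a call, its value is given beside the result.

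The promoters of 4 collagen genes and the stretch shared by another 2 are shown because their genes gave the largest rises with PB+RA against DMSO (COL13A1, COL23A1, COL26A1), a change with PB+RA below the sum of both single changes (COL7A1), or because a pair of partner chains starts there (COL4A1 and COL4A2). Each of the first 4 is the 250 bases before the start of transcription, read 5′ to 3′ on the gene's strand, from RefSeq on GRCh38.p14. Capitals mark the letters of the retinoid receptor motif AGGTCA (half-site), the GC-box motif GGGCGG, the motif of the CCAAT box (its name gives the letters) or the TATA-box motif TATAAA, on either strand, and adjoining matches run together. An E-box (CACGTG) was searched as well.
COL13A1, chr10:69801656-69801905, plus strand: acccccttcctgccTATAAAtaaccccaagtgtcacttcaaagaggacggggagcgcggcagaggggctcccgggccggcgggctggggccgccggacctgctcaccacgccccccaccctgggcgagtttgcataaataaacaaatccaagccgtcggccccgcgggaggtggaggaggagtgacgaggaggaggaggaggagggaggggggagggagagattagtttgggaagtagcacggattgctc
COL23A1, chr5:178590394-178590643, minus strand: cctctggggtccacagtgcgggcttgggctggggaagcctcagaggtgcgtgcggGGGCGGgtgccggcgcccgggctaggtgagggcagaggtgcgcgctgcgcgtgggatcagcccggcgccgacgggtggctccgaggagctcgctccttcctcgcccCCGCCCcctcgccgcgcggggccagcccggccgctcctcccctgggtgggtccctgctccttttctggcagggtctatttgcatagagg
COL26A1, chr7:101362625-101362874, plus strand: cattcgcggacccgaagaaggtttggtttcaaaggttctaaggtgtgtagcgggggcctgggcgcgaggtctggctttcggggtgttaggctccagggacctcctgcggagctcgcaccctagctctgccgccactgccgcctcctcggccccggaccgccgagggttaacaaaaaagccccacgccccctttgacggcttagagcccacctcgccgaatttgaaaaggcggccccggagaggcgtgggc
COL7A1, chr3:48595330-48595579, minus strand: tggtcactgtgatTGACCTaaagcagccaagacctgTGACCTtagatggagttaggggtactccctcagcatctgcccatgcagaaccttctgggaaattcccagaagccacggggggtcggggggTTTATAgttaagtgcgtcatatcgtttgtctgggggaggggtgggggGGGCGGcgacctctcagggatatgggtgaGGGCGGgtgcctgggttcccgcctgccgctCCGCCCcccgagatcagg
COL4A1 and COL4A2, 126 bases between their opposed starts, chr13:110307158-110307283, plus strand: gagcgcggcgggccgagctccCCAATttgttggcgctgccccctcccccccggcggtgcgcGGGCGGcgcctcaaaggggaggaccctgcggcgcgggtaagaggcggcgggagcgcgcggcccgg

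The COL7A1 stretch held 2 matches to AGGTCA, both as TGACCT, together with 3 matches to GGGCGG and 1 to TATAAA. COL23A1 held 2 matches to GGGCGG, COL13A1 held 1 match to TATAAA, far from the start of transcription, and COL26A1 held no match. The stretch between the starts of COL4A1 and COL4A2 held 1 match to GGGCGG and 1 to CCAAT. Promoters were matched by symbol for 29 of the 41 genes, some with several starts. Of their 38 promoter entries, 1 held AGGTCA, 23 held GGGCGG, 9 held CCAAT, 6 held TATAAA and 0 held CACGTG. Among all 35116 entries, these letters were present in 12.1%, 42.6%, 32%, 10.7% and 6.34%. A match describes letters in a window and not the binding of a factor.

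The level of the collagen genes varied widely. Counts that fell on them made up 0.0392% to 0.0442% of a sample in DMSO, 0.074% to 0.0889% in RA, 0.0536% to 0.0721% in PB and 0.0908% to 0.124% in PB+RA. Every RA, PB and PB+RA sample lay above every DMSO sample. Per exon length (RPKM, the CPM divided by the length in kilobases of the gene's merged exons), COL6A1 and COL6A2, the α1 and α2 chains of the beaded-filament collagen VI, were the highest, with means over the 16 samples of 34.7 and 21.8. COL5A1, a fibrillar chain that controls fibre width, followed at 9.32, the FACIT gene COL22A1 at 9.29 and the FACIT gene COL9A2 at 6.48. COL1A1, the main chain of collagen I, lay at 3.75.

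The filter on low counts kept 27 of the 41 genes: 6 fibrillar, 3 basement membrane, 8 FACIT, 2 transmembrane and 8 other. COL2A1 and COL19A1 passed it without reaching its level of 0.409 CPM in any DMSO sample. The 14 genes that did not pass had 1 to 85 counts over all 16 samples together. They were COL1A2, the partner of COL1A1 in collagen I, with 50 counts, the fibrillar genes COL5A3, COL11A1, COL11A2 and COL24A1, the basement membrane genes COL4A3, COL4A5 and COL15A1, the FACIT genes COL9A1 and COL20A1, the transmembrane genes COL17A1 and COL25A1, and COL8A2 and COL28A1. COL4A4, COL4A6 and COL10A1 were not analysed here.

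Each single agent and the pair were compared with DMSO, and PB+RA with each single agent. The 3 comparisons with DMSO share the same control samples, as the others share the PB+RA samples. A gene was called when its Benjamini-Hochberg adjusted p was under 0.05, over 15415 genes, and its log2 fold change was past 0.5 in either direction. With PB, 13 of the 27 collagen genes rose and 0 fell, against 16.9% and 11.3% of all genes tested. With RA, 13 rose and 0 fell, against 10.8% and 2.54%. PB+RA raised 18 and lowered 0, against 24% and 17.9%. Relative to PB, PB+RA samples had 12 collagen genes higher and 0 lower, against 9.02% and 7.27% of all genes. Relative to RA they had 9 higher and 2 lower, against 14.9% and 14.1%. These counts are from the fit without the replicate block. With the block, COL4A2 and COL23A1 also rose with PB, where rises among all genes went from 2606 to 2878. COL4A1, COL18A1, COL13A1 and COL23A1 also rose with RA, and COL6A6 fell. Among all genes, rises with RA went from 1661 to 2007 and falls from 392 to 509. In PB+RA relative to RA, the block added COL6A6 as higher and COL3A1 as lower.

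The median log2 fold change of the 27 genes was 0.56 with PB, 0.65 with RA and 1.16 with PB+RA, where the medians of all genes tested were 0.032, 0.011 and 0.041. It was 0.37 against PB and 0.29 against RA, where all genes gave -0.014 and 0.0026. The interaction is the log2 fold change of PB+RA minus those of both single agents. It was called above 0 for 0 collagen genes and below 0 for 1, against 0.415% and 3.02% of all genes. The replicate block added COL23A1 above 0 and COL1A1 below 0. Among all genes the block moved these calls from 64 to 190 above 0 and from 466 to 981 below 0. At an F test over the 4 groups with no fold minimum, 22 of the 27 differed, against 76.0% of all genes tested. The 5 that did not were COL4A1, COL9A3, COL19A1, COL21A1 and COL8A1.

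**Figure D1:**
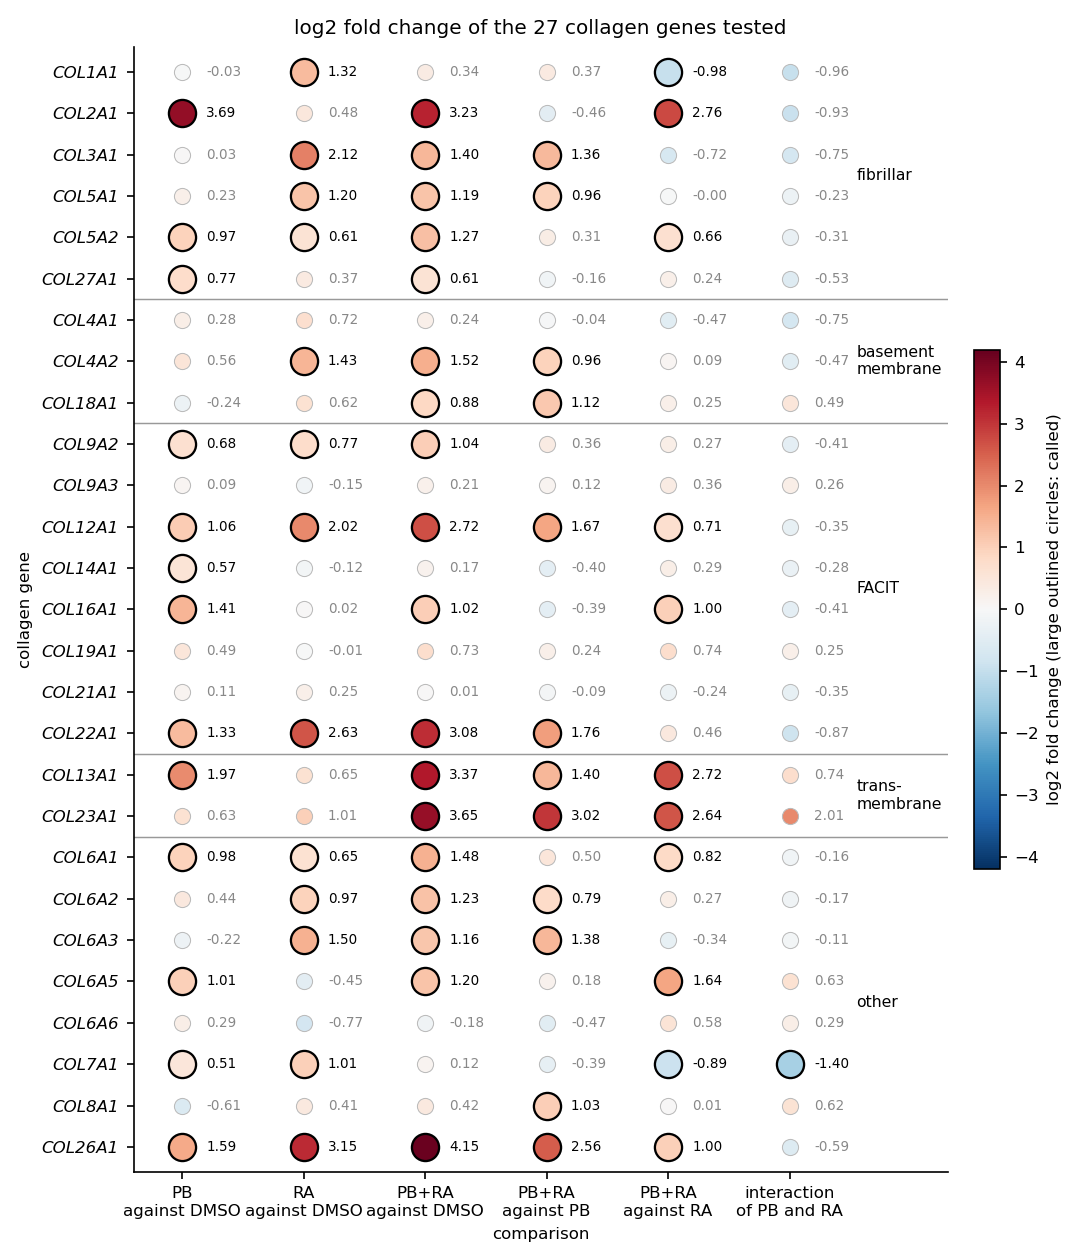
Each circle is the log2 fold change of a collagen gene (rows, grouped by class) in a comparison (columns, the last being the interaction of PB and RA), with the value printed beside it; red is higher, blue is lower, and large outlined circles mark genes that were called. Calls in the 3 columns against DMSO are all red, and the called falls are COL1A1 and COL7A1 in PB+RA against RA and COL7A1 in the interaction.

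Of the 6 fibrillar genes tested, 3 rose with PB (COL2A1, COL5A2, COL27A1), 4 with RA (COL1A1, COL3A1, COL5A1, COL5A2) and 5 with PB+RA (those 6 genes without COL1A1). Of all genes tested, 16.9% rose with PB, 10.8% with RA and 24% with PB+RA. Only COL5A2 was among both single-agent counts. The class held the largest rise with PB of any collagen gene tested, that of COL2A1, the chain of cartilage collagen II. COL2A1 reached the low-count filter's level of 0.409 CPM in 0 DMSO, 1 RA, 4 PB and 4 PB+RA samples. It thus entered the test, and the counts of rises with PB and PB+RA, through the groups where it was high. Its CPM in replicates 1 to 4 was 0.284, 0.245, 0.19 and 0.155 in DMSO, 0.164, 0.324, 0.301 and 0.451 in RA, 4.08, 5.18, 1.28 and 0.996 in PB, and 2.7, 3.54, 0.889 and 1.38 in PB+RA. All PB and PB+RA samples lay above all DMSO and RA samples, and replicates 1 and 2 were the higher ones in both groups given PB. The log2 fold change was 3.69 ± 0.60 (SE, n = 4 per group; edgeR adjusted p = 8.97e-05) with PB and 3.23 ± 0.61 (edgeR adjusted p = 0.000224) with PB+RA, and 0.48 ± 0.77 with RA, which was not called (adjusted p = 0.665).

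COL1A1 and COL3A1, whose products form the main fibres of bone, skin and vessel walls, were higher with RA. COL1A1 lay at 19.8, 20.6, 24.1 and 29.0 CPM in DMSO, 39.7, 56.6, 66.9 and 72.0 in RA, 21.0, 32.9, 15.6 and 22.1 in PB, and 22.2, 39.7, 23.4 and 35.5 in PB+RA. The RA samples stood above all DMSO and PB samples, and the PB+RA samples overlapped with DMSO. COL1A1 rose with RA by a log2 of 1.32 ± 0.24 (adjusted p = 0.000725), and PB+RA samples were lower than RA samples by a log2 fold change of -0.98 ± 0.24 (adjusted p = 0.00283). Its interaction of -0.96 ± 0.34 was not called (adjusted p = 0.133), and the replicate block gave a call at -0.96 (adjusted p = 0.0492). COL1A2, whose chain joins that of COL1A1 in collagen I, had between 1 and 9 counts in each sample.

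COL3A1 was at 3.72, 5.83, 8.32 and 13.2 CPM in DMSO, 12.9, 24.6, 40.5 and 57.6 in RA, 5.66, 8.71, 6.13 and 11.2 in PB, and 12.1, 18.6, 19.1 and 33.9 in PB+RA. Replicate 4 was highest and replicate 1 lowest in every group, so the lowest RA sample fell just below the highest DMSO sample. With RA it rose by 2.12 ± 0.46 on the log2 scale (adjusted p = 0.00284) and with PB+RA by 1.40 ± 0.46 (adjusted p = 0.0154). The second of these lost its call without PB+RA replicate 4, at 1.07 (adjusted p = 0.0647). PB+RA exceeded PB by 1.36 ± 0.47 (adjusted p = 0.0325), a call lost without any one of PB replicates 1, 2 and 3 or PB+RA replicates 3 and 4, with values of 1.04 to 1.41, or with no low-count filter, at 1.37 (adjusted p = 0.0855). Against RA the difference of -0.72 was not called, and with the replicate block it was, at -0.65 (adjusted p = 0.00371).

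The chains of collagen V, which seeds collagen I fibres, differed from each other. COL5A1 was at 53.3, 68.0, 55.9 and 67.1 CPM in DMSO, 118, 180, 122 and 143 in RA, 69.5, 99.1, 57.8 and 60.2 in PB, and 130, 188, 107 and 144 in PB+RA. Samples with RA, alone or with PB, did not overlap with those without it. The log2 fold change was 1.20 ± 0.19 under RA (adjusted p = 0.00028), 1.19 ± 0.19 under PB+RA (adjusted p = 6.37e-05) and 0.23 ± 0.19 with PB, which was not called.

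COL5A2 was at 1.92, 1.71, 1.52 and 1.82 CPM in DMSO, 2.50, 2.91, 2.71 and 2.57 in RA, 3.52, 3.10, 3.38 and 3.62 in PB, and 5.57, 4.12, 4.04 and 3.38 in PB+RA. DMSO, RA and PB were separate from each other in that order, and PB+RA overlapped with PB. It rose by 0.61 ± 0.15 under RA (adjusted p = 0.00546), 0.97 ± 0.15 under PB (adjusted p = 4.88e-05) and 1.27 ± 0.15 under PB+RA (adjusted p = 1.22e-06). Its excess over RA, 0.66 ± 0.15, fell below the fold minimum without PB+RA replicate 1, at 0.49. COL27A1, a fibrillar chain of cartilage, ranged from 2.55 to 3.52 CPM in DMSO and from 3.77 to 6.53 in PB, a rise of 0.77 ± 0.20 (adjusted p = 0.00425). With PB+RA its rise was 0.61 ± 0.20 (adjusted p = 0.0145), which was lost without PB+RA replicate 2, at 0.38, and after a correction for GC content and length, at 0.39.

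**Figure D2:**
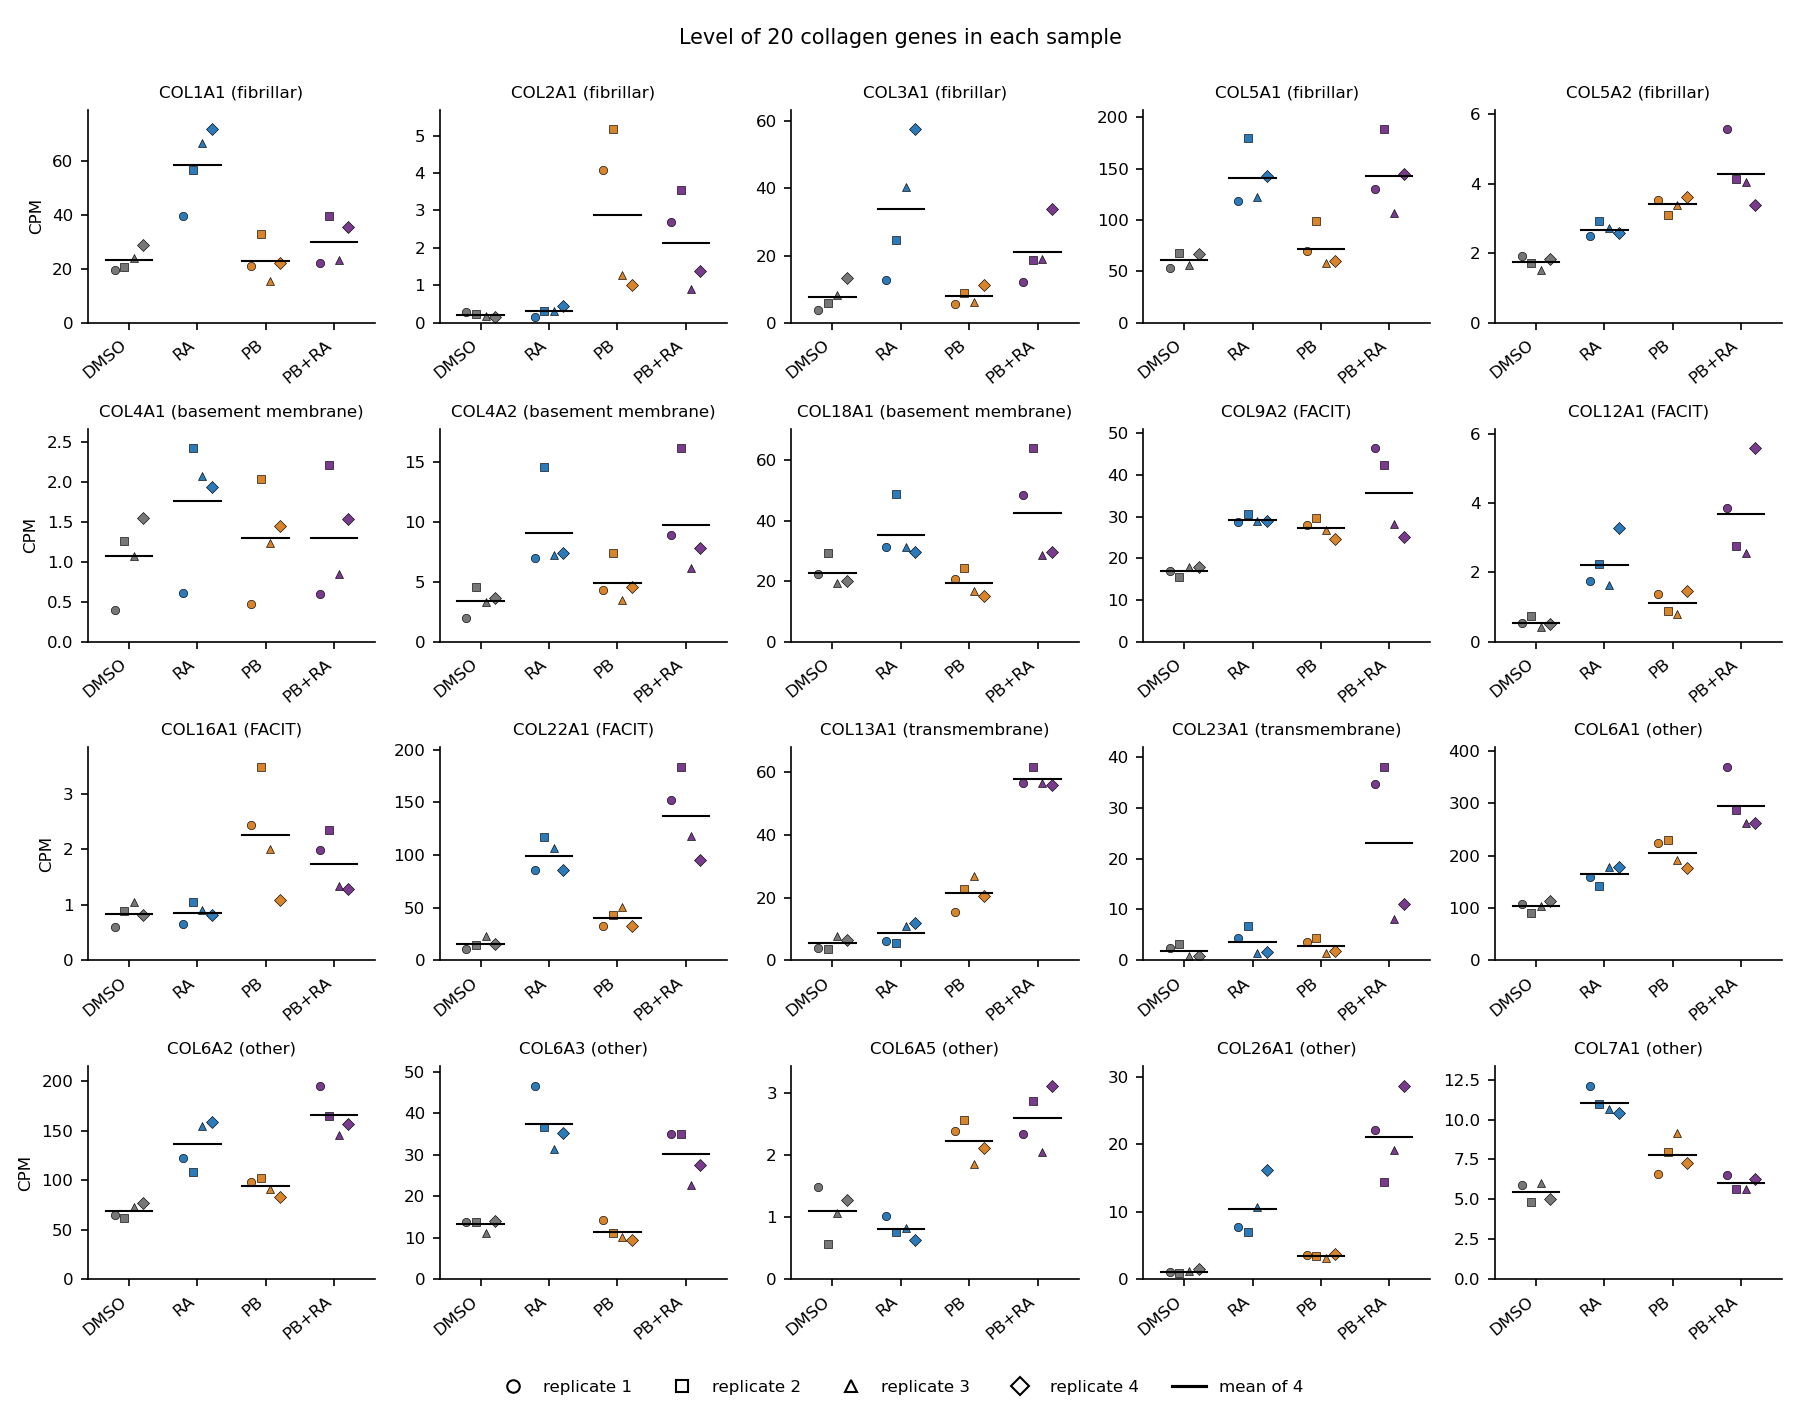
Points are the CPM of 20 collagen genes in each sample by group, with a shape for each replicate number and a line at the mean of 4; each vertical axis starts at 0 and has its own scale. COL13A1, COL23A1 and COL26A1 are highest in PB+RA, COL1A1 and COL7A1 are highest in RA, and COL2A1 and COL16A1 are raised in both groups given PB.

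Among basement membrane genes, 0 rose with PB, 1 with RA (COL4A2) and 2 with PB+RA (COL4A2 and COL18A1), of 3 tested. The shares of all genes tested were 16.9%, 10.8% and 24%, and counts out of 3 genes cannot be told apart from these. COL4A1 and COL4A2 encode the chains of the most widespread network collagen and start from opposite strands of the shared stretch printed above. COL4A2 was at 1.95, 4.57, 3.29 and 3.60 CPM in DMSO, 7, 14.6, 7.24 and 7.39 in RA, 4.29, 7.40, 3.47 and 4.53 in PB, and 8.87, 16.2, 6.18 and 7.79 in PB+RA. All RA and PB+RA samples were above all DMSO samples, and replicate 2 was highest in every group. The rises were 1.43 ± 0.35 under RA (adjusted p = 0.0053) and 1.52 ± 0.35 under PB+RA (adjusted p = 0.00128). With PB the value of 0.56 ± 0.36 was not called, and it was with the replicate block, at 0.54 (adjusted p = 0.00605). The excess of PB+RA over PB, 0.96 ± 0.34 (adjusted p = 0.0386), lost its call without PB replicate 1, 3 or 4 or PB+RA replicate 1 or 2, with values from 0.60 to 1.00, and with no low-count filter, at 0.96 (adjusted p = 0.093).

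COL4A1 was at 0.39, 1.26, 1.07 and 1.55 CPM in DMSO, 0.614, 2.43, 2.07 and 1.94 in RA, 0.472, 2.03, 1.24 and 1.45 in PB, and 0.596, 2.21, 0.849 and 1.54 in PB+RA. Replicate 1 was lowest in all 4 groups and the groups overlapped. No comparison was called, with 0.72 ± 0.50 for RA (adjusted p = 0.28) and 0.24 ± 0.51 for PB+RA (adjusted p = 0.689). With the replicate block the RA value of 0.71 was called (adjusted p = 0.00741). In the GENCODE models on GRCh37 used for exon lengths, both genes overlap at their starts by 1346 bases on opposite strands, unlike the RefSeq starts on GRCh38 printed above, which lie apart. Which strand setting gave the counts was not stated, so their counts are uncertain there. Of the chains found in kidney and lung, COL4A3 had 1 count in PB+RA replicate 2 and 0 counts in the other 15 samples, and COL4A5 had 0 to 3 counts per sample.

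COL18A1, whose product carries heparan sulphate chains and yields the fragment endostatin, was at 22.5, 29.2, 19.3 and 20.2 CPM in DMSO, 31.3, 48.8, 31.3 and 29.8 in RA, 20.6, 24.5, 16.9 and 15.1 in PB, and 48.4, 64.1, 28.5 and 29.6 in PB+RA. Every RA and PB+RA sample lay above every PB sample, and the lowest PB+RA sample lay within the DMSO range. It rose with PB+RA by 0.88 ± 0.26 (adjusted p = 0.00678) and exceeded PB by 1.12 ± 0.26 (adjusted p = 0.00339). With RA the difference of 0.62 ± 0.26 was not called (adjusted p = 0.0697), although the groups did not overlap, and the replicate block gave a call (adjusted p = 0.000114), as did fits without DMSO replicate 2, at 0.77, or PB+RA replicate 2, at 0.62, DESeq2, at 0.60, and a fit to the DMSO and RA samples alone, at 0.61. COL18A1 overlaps SLC19A1 on the opposite strand, which was at 78.6 CPM where COL18A1 was at 30.0.

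In the FACIT class 8 genes were tested, of which 5 rose with PB (COL9A2, COL12A1, COL14A1, COL16A1, COL22A1), 3 with RA (COL9A2, COL12A1, COL22A1) and 4 with PB+RA (COL9A2, COL12A1, COL16A1, COL22A1). Rises among all genes tested were 16.9% with PB, 10.8% with RA and 24% with PB+RA. COL22A1, a collagen of tissue junctions such as that of muscle and tendon, was at 10.7, 14.4, 22.9 and 15.4 CPM in DMSO, 86.4, 117, 107 and 85.6 in RA, 32.8, 43.3, 50.6 and 33.1 in PB, and 153, 184, 118 and 95.4 in PB+RA. DMSO, PB and RA were separate from each other, and the RA and PB+RA samples overlapped. It rose by 1.33 ± 0.25 under PB (adjusted p = 0.000356), 2.63 ± 0.25 under RA (adjusted p = 3.08e-06) and 3.08 ± 0.25 under PB+RA (adjusted p = 5.28e-08). The excess over RA, 0.46 ± 0.23, was not called, and was called without PB+RA replicate 4, at 0.60 (adjusted p = 0.0377).

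COL12A1, which binds collagen I fibres under tension, was at 0.532, 0.734, 0.411 and 0.503 CPM in DMSO, 1.76, 2.22, 1.62 and 3.29 in RA, 1.37, 0.871, 0.808 and 1.45 in PB, and 3.86, 2.75, 2.55 and 5.58 in PB+RA. DMSO, PB and RA did not overlap, in rising order, and the PB+RA samples reached highest while overlapping with RA. Its log2 rises were 1.06 ± 0.34 under PB (adjusted p = 0.015), 2.02 ± 0.32 under RA (adjusted p = 0.000166) and 2.72 ± 0.31 under PB+RA (adjusted p = 9.79e-07). The excess over RA, 0.71 ± 0.27 (adjusted p = 0.0382), lost its call without PB+RA replicate 1 or 4 or RA replicate 1, 2 or 3, with values from 0.45 to 0.71, and in a fit to the RA and PB+RA samples alone, at 0.72 (adjusted p = 0.0696).

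COL9A2, a chain of the cartilage FACIT collagen IX, was at 17.0, 15.4, 17.9 and 17.8 CPM in DMSO, 28.7, 30.6, 28.9 and 29.0 in RA, 28.1, 29.6, 26.7 and 24.7 in PB, and 46.5, 42.5, 28.2 and 25.2 in PB+RA. Every treated sample exceeded every DMSO sample, and PB+RA replicates 3 and 4 lay at the level of the single agents while replicates 1 and 2 lay above it. The rises were 0.68 ± 0.15 under PB (adjusted p = 0.00126), 0.77 ± 0.15 under RA (adjusted p = 0.001) and 1.04 ± 0.15 under PB+RA (adjusted p = 1.49e-05). Its partner COL9A3 ranged from 12.4 to 23.2 CPM and was called in no comparison; it overlaps TCFL5 on the opposite strand (24.8 CPM).

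COL16A1, a FACIT gene of skin and cartilage, was at 0.603, 0.897, 1.04 and 0.813 CPM in DMSO, 0.655, 1.05, 0.904 and 0.811 in RA, 2.44, 3.48, 2.00 and 1.09 in PB, and 1.99, 2.35, 1.33 and 1.28 in PB+RA. All PB and PB+RA samples were above all DMSO and RA samples, PB replicate 4 by a small margin. It rose with PB by 1.41 ± 0.31 (adjusted p = 0.00106) and with PB+RA by 1.02 ± 0.31 (adjusted p = 0.00903), and RA gave 0.02 ± 0.33. The excess of PB+RA over RA, 1.00 ± 0.32, lost its call without PB+RA replicate 2, at 0.81 (adjusted p = 0.0519). COL14A1, at 1.73 to 4.55 CPM, gave 0.57 ± 0.20 under PB (adjusted p = 0.0252), a call lost without DMSO replicate 3 or PB replicate 1, at 0.49 each, or PB replicate 2, at 0.52. COL19A1 (0.0709 to 0.581 CPM) and COL21A1 (3.88 to 7.82 CPM) were called in no comparison, and COL19A1 overlaps LMBRD1 on the opposite strand, at 29.6 CPM.

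Both transmembrane genes tested were highest with PB+RA, and this class had the largest median rise, 3.51 over its 2 genes. COL13A1, of the neuromuscular junction and other adhesion sites, was at 3.83, 3.63, 7.78 and 6.46 CPM in DMSO, 6.18, 5.70, 11.0 and 11.8 in RA, 15.6, 22.6, 27.0 and 20.4 in PB, and 56.6, 61.7, 56.6 and 55.8 in PB+RA. PB+RA was separate from PB, which was separate from RA and DMSO, and those last groups overlapped. It rose by 1.97 ± 0.27 under PB (adjusted p = 1.85e-05) and by 3.37 ± 0.27 under PB+RA (adjusted p = 3.46e-08), and exceeded PB by 1.40 ± 0.25 (adjusted p = 0.000454) and RA by 2.72 ± 0.26 (adjusted p = 5.18e-07). RA alone gave 0.65 ± 0.28, which was not called (adjusted p = 0.0768). The replicate block gave this value a call, at 0.65 (adjusted p = 0.0447), and without DMSO replicate 3 or RA replicate 1 or 2, at 0.89, 0.78 and 0.81, and DESeq2 called it at 0.63. The interaction was 0.74 ± 0.37 (adjusted p = 0.308).

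COL23A1, a shed transmembrane collagen, was at 2.48, 3.14, 0.791 and 0.852 CPM in DMSO, 4.50, 6.79, 1.54 and 1.67 in RA, 3.56, 4.40, 1.38 and 1.81 in PB, and 34.5, 38.0, 8.08 and 11.2 in PB+RA. Replicates 1 and 2 were above replicates 3 and 4 in every group, and each PB+RA sample was still above all samples of the other groups. PB+RA raised it by 3.65 ± 0.66 (adjusted p = 0.000185), and exceeded PB by 3.02 ± 0.64 (adjusted p = 0.00194) and RA by 2.64 ± 0.62 (adjusted p = 0.00219). The single agents gave 0.63 ± 0.69 (PB) and 1.01 ± 0.67 (RA), neither of which was called, and the interaction was 2.01 ± 0.92 (adjusted p = 0.26). With the replicate block all 3 were called: 0.64 under PB (adjusted p = 0.00138), 0.98 under RA (adjusted p = 1.63e-05) and 1.98 for the interaction (adjusted p = 1.18e-06). Within every replicate number the order was DMSO below PB and RA, and PB+RA on top.

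The class of other types held the collagen VI genes, which encode the beaded filaments found around most cells. COL6A1 was at 108, 90.2, 104 and 114 CPM in DMSO, 159, 142, 178 and 179 in RA, 224, 229, 191 and 176 in PB, and 369, 286, 261 and 263 in PB+RA. DMSO was lowest and PB+RA highest, each apart from the rest, and RA and PB overlapped slightly. It rose by 0.98 ± 0.12 under PB (adjusted p = 3.85e-06), 0.65 ± 0.12 under RA (adjusted p = 0.000535) and 1.48 ± 0.12 under PB+RA (adjusted p = 1.8e-08). Its excess over PB was 0.50 ± 0.12 (adjusted p = 0.00331), just short of the fold minimum. It was called without DMSO replicate 4, PB replicate 1 or 2, PB+RA replicate 2, 3 or 4 or RA replicate 1 or 4, with values from 0.50 to 0.56, and with DESeq2, RLE factors, no low-count filter or the PB and PB+RA samples alone, at 0.50 to 0.52.

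COL6A2 was at 65.1, 61.8, 73.5 and 76.8 CPM in DMSO, 123, 109, 155 and 159 in RA, 98.7, 103, 91.0 and 83.6 in PB, and 196, 165, 146 and 157 in PB+RA. The 4 DMSO samples were lowest, the PB samples came next, and RA and PB+RA overlapped above them. It rose by 0.97 ± 0.12 under RA (adjusted p = 2.35e-05) and 1.23 ± 0.12 under PB+RA (adjusted p = 1.94e-07), and PB gave 0.44 ± 0.12 (adjusted p = 0.00578), short of the fold minimum.

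COL6A3, which encodes the longest of the 3 main chains, was at 13.8, 13.9, 11.0 and 14.1 CPM in DMSO, 46.6, 36.7, 31.4 and 35.3 in RA, 14.2, 11.2, 10.3 and 9.51 in PB, and 34.9, 35.0, 22.8 and 27.5 in PB+RA. Samples given RA, with or without PB, were all above those not given it. It rose by 1.50 ± 0.16 under RA (adjusted p = 4.14e-06) and 1.16 ± 0.16 under PB+RA (adjusted p = 6.79e-06), where PB gave -0.22 ± 0.16 (adjusted p = 0.256).

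COL6A5 and COL6A6 encode chains that can stand in for the COL6A3 chain in collagen VI and lie 32.3 kb apart on chromosome 3. COL6A5 was at 1.49, 0.571, 1.07 and 1.28 CPM in DMSO, 1.02, 0.768, 0.829 and 0.631 in RA, 2.40, 2.56, 1.85 and 2.13 in PB, and 2.35, 2.88, 2.06 and 3.13 in PB+RA. All samples given PB were above all samples not given it. It rose by 1.01 ± 0.24 under PB (adjusted p = 0.00185) and 1.20 ± 0.23 under PB+RA (adjusted p = 0.000279). RA gave -0.45 ± 0.26, not called, which without DMSO replicate 2 was called at -0.65 (adjusted p = 0.0351).

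COL6A6 ranged from 14.1 to 30.7 CPM in DMSO, 8.14 to 20.8 in RA, 19.4 to 34.5 in PB and 16.4 to 22.9 in PB+RA, so that all groups overlapped with DMSO. In each replicate number the RA sample was lowest. Its difference with RA, -0.77 ± 0.30, was not called (adjusted p = 0.0613), and the replicate block gave a call, at -0.77 (adjusted p = 0.000193), and without DMSO replicate 3, at -0.94, or RA replicate 1, at -1.08, as it was with DESeq2, at -0.79, and after the GC and length correction, at -0.82. The excess of PB+RA over RA, 0.58 ± 0.30 (adjusted p = 0.118), gained a call from the replicate block, at 0.64 (adjusted p = 0.000715), and without RA replicate 1, at 0.90.

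COL26A1, a little-studied collagen with short triple-helical stretches, rose most of all collagen genes with RA and with PB+RA. Its CPM was 1.06, 0.897, 1.17 and 1.51 in DMSO, 7.70, 7, 10.7 and 16.2 in RA, 3.56, 3.39, 3.23 and 3.80 in PB, and 22.2, 14.3, 19.1 and 28.7 in PB+RA. DMSO, PB and RA were fully separate in rising order, and only the highest RA sample reached into the PB+RA range. The log2 rises were 1.59 ± 0.29 under PB (adjusted p = 0.000251), 3.15 ± 0.28 under RA (adjusted p = 8.79e-07) and 4.15 ± 0.28 under PB+RA (adjusted p = 2.31e-09). PB+RA exceeded PB by 2.56 ± 0.25 (adjusted p = 1.52e-06) and RA by 1.00 ± 0.23 (adjusted p = 0.00182).

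The product of COL7A1 forms the anchoring fibrils that hold skin to its basement membrane. COL7A1 was singled out after its values were seen, as the only collagen gene with a called interaction in the fit without the block. With the replicate block the interactions of COL23A1 and COL1A1 were called as well. It was at 5.89, 4.81, 6.04 and 5.03 CPM in DMSO, 12.1, 11.0, 10.6 and 10.4 in RA, 6.61, 7.98, 9.13 and 7.29 in PB, and 6.56, 5.67, 5.66 and 6.25 in PB+RA. The RA samples were above all others, the PB samples were above DMSO, and the PB+RA samples overlapped with DMSO. It rose with RA by 1.01 ± 0.12 (adjusted p = 8.64e-06), and PB+RA was at -0.89 ± 0.12 against RA (adjusted p = 7.11e-06) and at 0.12 ± 0.12 against DMSO (adjusted p = 0.391). The interaction was -1.40 ± 0.17 (adjusted p = 0.000271). Its rise with PB of 0.51 ± 0.12 (adjusted p = 0.00157) stood at the fold minimum and was lost without DMSO replicate 2 or 4, PB replicate 2 or 3 or PB+RA replicate 1 or 2, with values from 0.39 to 0.49. It was also lost with DESeq2 and in a fit to the DMSO and PB samples alone, at 0.48 each, with RLE factors, at 0.49, with no low-count filter, at 0.47, and after the GC and length correction, at 0.37.

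COL8A1, a short network collagen of vessel walls, was at 0.938 to 3.10 CPM in DMSO and 0.856 to 1.54 CPM in PB. PB+RA samples were at 2.35 to 3.59 CPM, above all PB samples, and exceeded them by 1.03 ± 0.38 (adjusted p = 0.0417). That call was lost without any one of the 4 PB replicates or PB+RA replicates 2, 3 and 4, with values from 0.88 to 1.11, and with no low-count filter, at 1.04 (adjusted p = 0.074).

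**Figure D3:**
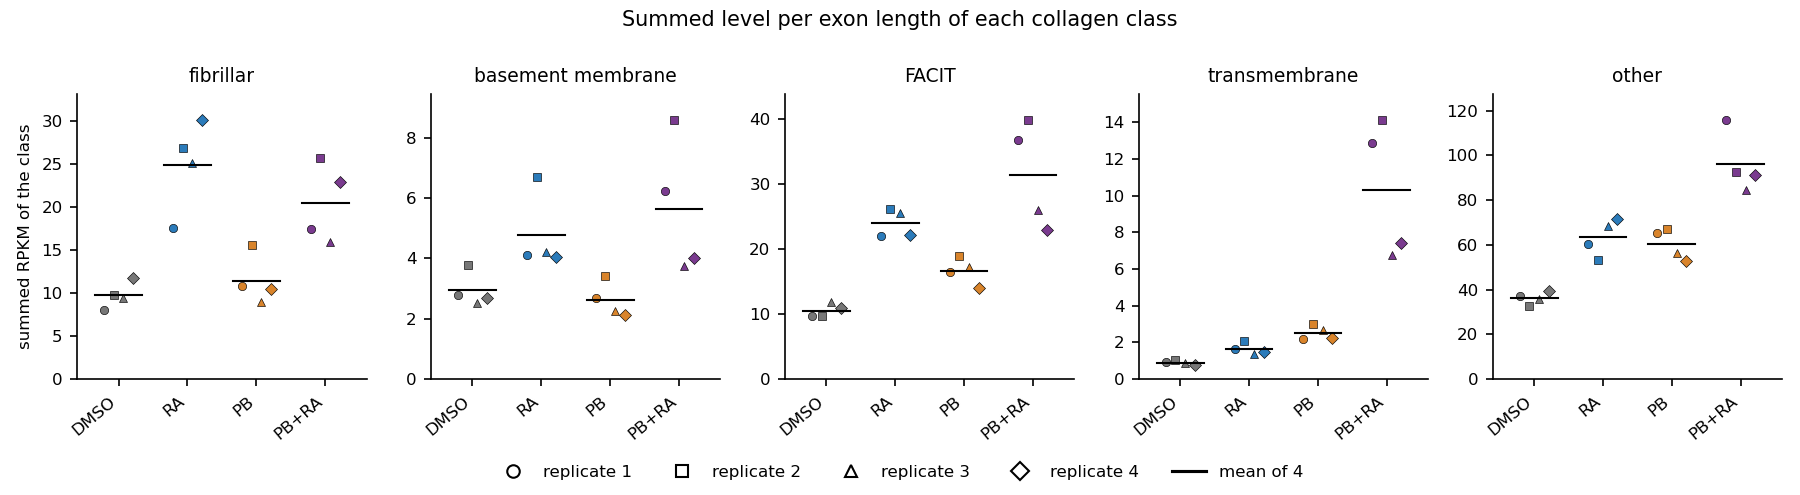
Points are the summed RPKM of all genes of a class in each sample, with a line at the mean of 4 and axes that start at 0. Transmembrane collagens lie at 0.775 to 1.05 in DMSO and at 6.79 to 14.1 in PB+RA, while the fibrillar class is highest in RA, at 17.6 to 30.1.

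Summed per exon length, the classes were ordered differently across the groups. These sums are given as a description, and their largest genes set them. The fibrillar sum was 9.74 ± 1.52 RPKM in DMSO (SD, n = 4 in each group), 24.9 ± 5.32 RPKM in RA, 11.5 ± 2.87 RPKM in PB and 20.5 ± 4.55 RPKM in PB+RA. All RA and PB+RA samples were above all PB samples, of which the highest was 15.6. The basement membrane sum was 2.94 ± 0.565, 4.77 ± 1.29, 2.62 ± 0.585 and 5.64 ± 2.25 RPKM in the same order, and the FACIT sum was 10.5 ± 1.03, 23.9 ± 2.18, 16.6 ± 2.04 and 31.4 ± 8.14 RPKM. The transmembrane sum was 0.899 ± 0.114, 1.64 ± 0.329, 2.53 ± 0.381 and 10.3 ± 3.73 RPKM, with no overlap between any of the 4 groups. Its share of all collagen RPKM was 1.50% in DMSO samples, 1.40% in RA samples, 2.71% in PB samples and 6.14% in PB+RA samples, where the fibrillar share was 16.1%, 20.9%, 12.1% and 12.6%.

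Chains that assemble with each other did not keep a fixed ratio. COL6A1 over COL6A2, as a ratio of RPKM, was 1.36 to 1.59 in DMSO, 1.09 to 1.26 in RA, 2.02 to 2.18 in PB and 1.61 to 1.82 in PB+RA, with no overlap between any groups. COL6A1 over COL6A3 was 25.2 to 36.4 in DMSO, 13.2 to 22.0 in RA, 61.2 to 79.6 in PB and 31.8 to 44.5 in PB+RA, so RA samples were lowest and PB samples highest. COL5A1 over COL5A2 was 29.5 to 40.5 in RA and 10.9 to 21.0 in PB. The last ratio did not overlap between these groups, and DMSO, at 18.3 to 26.1, overlapped with PB. PB+RA, at 15.3 to 30.0, overlapped with DMSO, RA and PB.

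**Figure D4:**
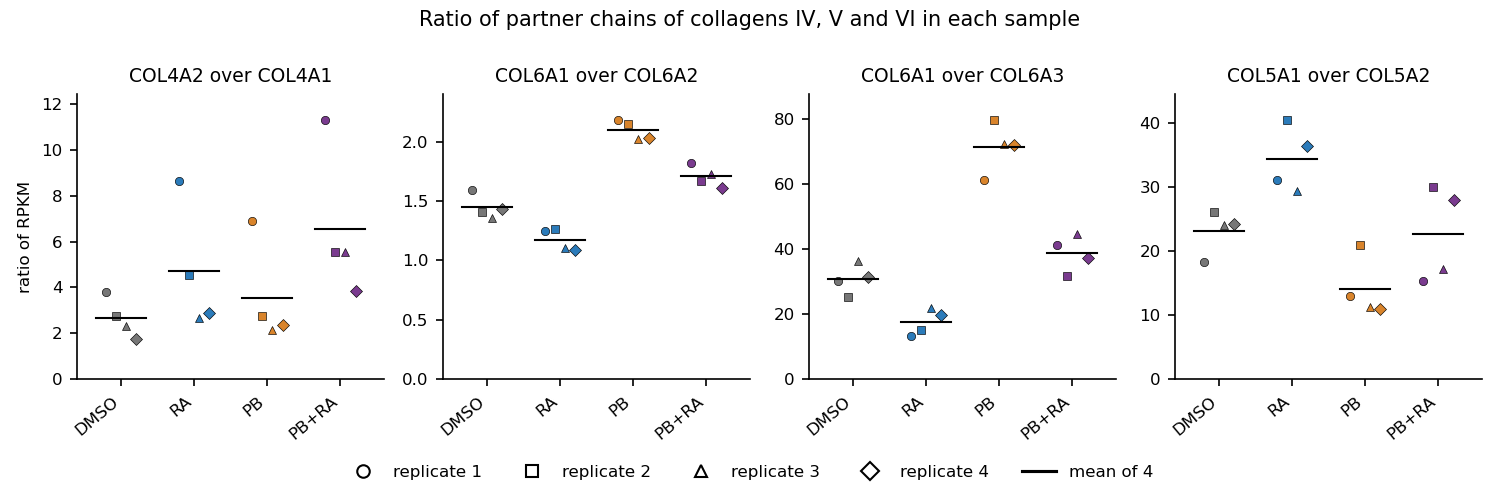
Points are the ratio of RPKM of partner chains in each sample, with a line at the mean of 4 and axes that start at 0. COL6A1 over COL6A2 and over COL6A3 is highest in PB and lowest in RA. COL4A2 over COL4A1 is highest in replicate 1 of every group, where COL4A1 had 11 or 15 counts.

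COL4A2 over COL4A1 was 1.77 to 3.80 in DMSO, 2.66 to 8.67 in RA, 2.14 to 6.92 in PB and 3.85 to 11.3 in PB+RA. Every PB+RA sample was above every DMSO sample, and replicate 1 gave the highest ratio in each group. The replicate 1 ratios rest on few COL4A1 counts, 11 in DMSO and in PB and 15 in RA and in PB+RA. The overlap of both genes on opposite strands limits this ratio in all samples. COL9A2 over COL9A3 was 1.17 to 1.33 in DMSO, and all treated samples lay higher, between 1.56 and 2.83. The overlap of COL9A3 with TCFL5 on the opposite strand limits this ratio as well. These ratios use exon lengths from one annotation, which scale all samples alike and cannot alter the differences between groups.

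The collagen genes were also compared across replicate numbers. In a fit with group and replicate number, 15 of the 27 differed among the 4 numbers, against 37.3% of all genes tested. These were 4 of 6 fibrillar, 3 of 3 basement membrane, 4 of 8 FACIT, 1 of 2 transmembrane and 3 of 8 other genes. The smallest adjusted p values were those of COL23A1 (1.25e-10), COL4A2 (1.52e-05) and COL4A1 (1.56e-05). Replicates 1 and 2 lay above replicates 3 and 4 in all 4 groups for 4 genes (COL18A1, COL21A1, COL23A1 and COL6A6), against 7.9% of all genes, and the reverse held for 0, against 8.79%.

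**Figure D5:**
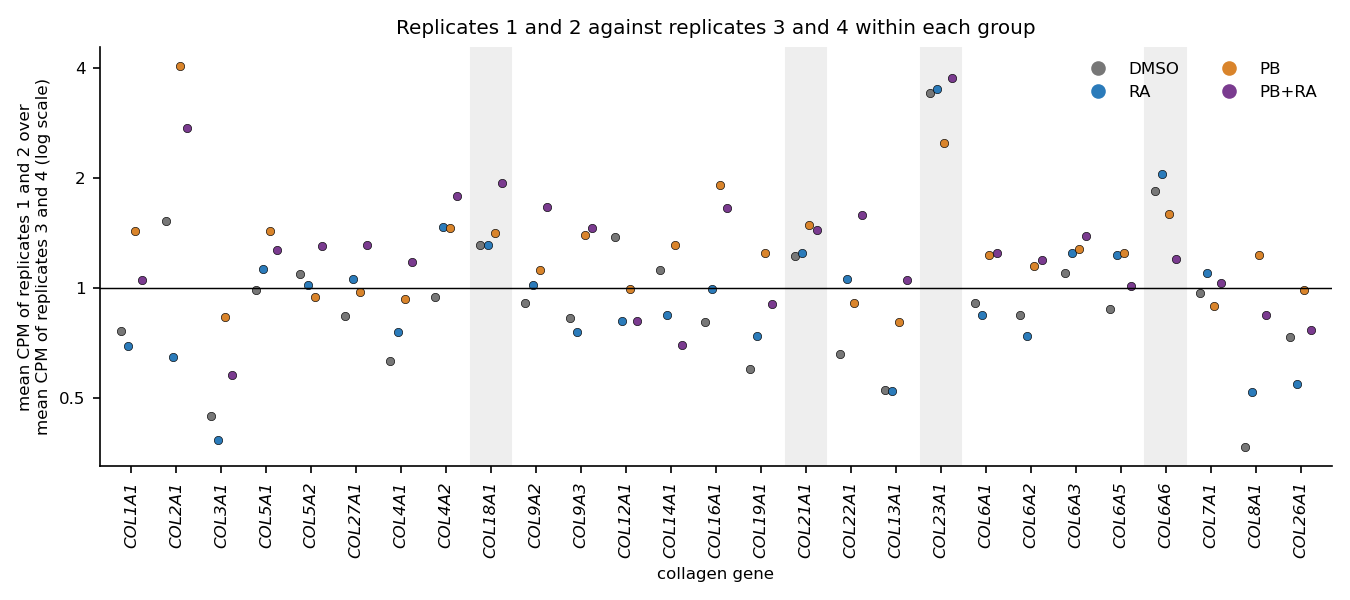
Points are the mean CPM of replicates 1 and 2 divided by that of replicates 3 and 4 in each group, on a log scale, for the 27 genes tested; grey bands mark the 4 genes whose replicates 1 and 2 were above replicates 3 and 4 in every group. COL23A1 stands at 2.50 to 3.77 in all 4 groups.

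For COL23A1 the mean of replicates 1 and 2 was 3.42 times that of replicates 3 and 4 in DMSO, 3.52 times in RA, 2.50 times in PB and 3.77 times in PB+RA. COL18A1 gave 1.31, 1.31, 1.41 and 1.94, COL6A6 gave 1.84, 2.05, 1.59 and 1.20, and COL21A1 gave 1.22, 1.25, 1.49 and 1.44, in the same order of groups. Other genes parted in only some groups. COL2A1 had ratios of 4.06 in PB and 2.75 in PB+RA, where the samples without PB held few counts of it. COL13A1 had 0.524 in DMSO and 0.522 in RA but 0.805 in PB and 1.05 in PB+RA. COL3A1 was lower in replicates 1 and 2 on average in all 4 groups, at 0.382 to 0.83. What the replicate numbers share was not tested.

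The lengths of coding exons are given as a description, with no test between classes. In the longest coding transcript of each gene, 74.6% to 88.5% of the coding exons of the 11 fibrillar genes had a length that is a multiple of 9 bases, the length that encodes a Gly-X-Y repeat of the triple helix, where 13.75% of the coding exons of other protein-coding genes had one. COL1A1 held 21 exons of exactly 54 bases among 51, and 0.467% of exons elsewhere had this length. The share was 33.3% to 51.1% in basement membrane genes, 20% to 72% in FACIT genes and 56.4% to 76.3% in transmembrane genes, so that the last class overlapped with the fibrillar range. COL26A1, which rose most with PB+RA, had 3 such exons of 14, and COL8A1 and COL8A2 had 0 of 2. COL3A1 and COL5A2 lie 19.2 kb apart on chromosome 2 and COL6A1 and COL6A2 93.1 kb apart on chromosome 21 (GRCh37). Of the first pair, COL5A2 rose with PB and COL3A1 did not, with a log2 fold change of 0.03.

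Genes that modify, fold, export, cleave, cross-link or bind collagen formed a list of 43, of which 39 were tested. With PB, 9 rose (23.1%) and 5 fell (12.8%), where 16.9% and 11.3% of all genes tested did. With RA 6 rose (15.4%) and 0 fell, beside 10.8% and 2.54% of all genes. With PB+RA 11 rose (28.2%) and 5 fell (12.8%), beside 24% and 17.9%. These shares, all against DMSO, lie near those of all genes. PB+RA had 7 higher (17.9%) and 3 lower (7.69%) than PB, beside 9.02% and 7.27% of all genes. The larger share of higher genes here was not tested. It had 7 higher (17.9%) and 6 lower (15.4%) than RA, beside 14.9% and 14.1%. The median log2 fold change with PB+RA was 0.29 for the list and 1.16 for the collagen genes. By role, 1 of 13 chain-modifying genes rose with PB+RA and 3 fell, and 2 of 8 genes of chaperones and export rose. For propeptide cleavage 3 of 7 genes rose and 2 fell, 1 of 5 cross-linking genes rose and 4 of 6 receptor genes rose. P4HA3 (chain modification) and TLL2 (propeptide cleavage) passed the low-count filter without reaching its level of 0.409 CPM in any DMSO sample. Both thus entered the counts of rises with PB and PB+RA through the groups where they were high.

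Among called genes of the list with a mean of at least 1 CPM, the largest rises with PB+RA were those of ADAMTS14, a protease that removes the amino-terminal propeptide of fibrillar procollagens (5.61 ± 0.29, adjusted p = 2.47e-10), LOXL4, a cross-linking oxidase (1.81 ± 0.30, adjusted p = 5.19e-05), and ITGA1, the α1 subunit of a collagen-binding integrin (1.75 ± 0.13, adjusted p = 5.99e-09). ADAMTS14 had a mean of 2.40 ± 1.11 CPM in DMSO (SD, n = 4), 29.7 ± 7.81 CPM in RA, 8.55 ± 2.83 CPM in PB and 122 ± 8.15 CPM in PB+RA. P4HA3, a subunit of a prolyl hydroxylase with a mean of 0.573 CPM, lay below that level and rose by 2.03 ± 0.32 (adjusted p = 3.53e-05). No DMSO sample of P4HA3 met the low-count filter, at 0.19 to 0.319 CPM, where its PB+RA samples lay at 0.808 to 1.37 CPM. It thus entered the test through the groups where it was high. LOXL4 was 0.83 in replicates 3 and 4 alone and 2.57 in replicates 1 and 2 alone. The largest falls at that level were those of ADAMTS3, a protease of the same kind (-1.65 ± 0.14, adjusted p = 2.61e-08), P4HA1, a catalytic subunit of the prolyl hydroxylase that stabilises the triple helix (-1.12 ± 0.12, adjusted p = 5.43e-07), and CRTAP, part of the complex that modifies prolines in fibrillar chains (-1.08 ± 0.11, adjusted p = 3.25e-07). P4HA1 had means of 61.9 ± 5.93 CPM in DMSO, 56.8 ± 2.26 CPM in RA, 29.1 ± 1.88 CPM in PB and 29.2 ± 6.86 CPM in PB+RA, so both groups given PB were below both groups without it.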

How the data were processed

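RNA was sequenced from 16 cultures of SK-N-BE(2)C. The authors enriched polyadenylated RNA, per their methods, built strand-specific paired-end libraries, trimmed reads with Trim Galore 0.6.4, aligned them to hg19 with STAR 2.6.1d and ran DESeq2 1.32.0 (versions per the submitters' processing notes). The deposited counts are STAR's whole read counts per gene, not normalised by the authors; annotation release and strand setting are not given in the sources used here. The deposited CPM table and the authors' table of comparisons (fold changes and p-values) were not used.

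Groups and replicate numbers came from sample titles. Counts were fitted in R 4.3.3 with edgeR 4.0.16 (filterByExpr, TMM, robust quasi-likelihood, group as the sole factor, 16 samples), and every adjusted p is edgeR's, Benjamini-Hochberg over 15415 genes. A standard error is the size of the log2 fold change over the square root of F. The fit was tested on simulated data. CPM was computed from counts, and RPKM from exon lengths of GENCODE models on GRCh37, which may differ from the authors' annotation and matched 23912 of 27037 symbols. The interval of a count of 0 takes 3 counts and covers counting error only.

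Replicate numbers come from the titles. Deviations from group means correlated at r = 0.330 to 0.573 in all 24 same-number pairs of samples. The 72 pairs of different numbers gave -0.492 to 0.447, which overlaps that range. Per the authors' methods, a replicate is another passage, plated on its own. No replicate pair agreed within sampling noise. The chi-square per degree of freedom was 3.11 to 9.66 between replicates 1 and 2 or 3 and 4, and 12.5 to 31.1 across these sets. Whether the shared deviations follow each number or these sets was not tested.

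Values by sample were given for called genes whose mean CPM reached 1, at most 4 per class by largest change, for the collagen IV chains and for the 3 highest by RPKM, and for COL7A1, chosen after its values were seen. From the pathway list, the 3 largest called rises and falls with PB+RA were named among genes with a mean CPM of 1 or more. P4HA3 and TLL2 were named in addition. Members, classes and lists were chosen with earlier results of these data known. Alternatives were DESeq2 1.42.0, RLE factors, no filter, no fold minimum, a GC and length correction (splines with 5 degrees of freedom, lengths known for 95.2% of genes), the replicate block, both replicate sets, fits to only the groups compared and each library left out.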

Additional observations from a re-analysis of the deposited data

Results flagged for a closer look

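In 19 collagen genes with values by sample, COL7A1 not among them, 76 sets of 4 replicates were searched for a sample far from the others, and chance alone marks about 1 set in 20. The search marked 5 sets. In RA, replicate 2 was the high sample for COL4A2 (14.6 CPM), COL18A1 (48.8 CPM) and COL9A2 (30.6 CPM). For COL13A1 the high sample was PB+RA replicate 2 (61.7 CPM), and for COL6A3 the low sample was DMSO replicate 3 (11.0 CPM).

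Whether the change with PB+RA differed from the sum of the changes with PB and with RA was tested for each gene as an interaction. For COL7A1 it was -1.40 on the log2 scale (edgeR adjusted p = 0.000271), so PB+RA lay below the sum of both single changes. COL7A1 was the only one of the 27 collagen genes called below 0 in this fit, against 3.02% of all genes tested.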

How the results depend on the processing

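The collagen calls were recomputed under 25 alternatives for each comparison with 2 groups. Over 162 values of 27 genes, 0 changed direction with a call under any of them, and leaving out a library lost at most 5 of the 68 calls. Larger losses came with fits in 2 samples per group: 13 calls were lost and 15 gained in replicates 1 and 2 alone, and 13 lost and 12 gained in replicates 3 and 4 alone. Lost calls included COL1A1 (1.24), COL5A1 (1.29), COL5A2 (0.56) and COL4A2 (1.73) with RA in the first set, and COL12A1 (1.27), COL22A1 (1.07) and COL16A1 (0.67) with PB in the second. DESeq2 lost 1 call and gained 4, given beside the results.

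The replicate block, which follows the replicate numbers, lost 0 of the 68 calls and gained 11. It moved falls with RA from 0 to 1 (COL6A6), interactions above 0 from 0 to 1 (COL23A1) and below 0 from 1 to 2 (COL1A1 added). It also added rises with PB for COL4A2 and COL23A1, and rises with RA for COL4A1, COL18A1, COL13A1 and COL23A1. It changed no call other than those given beside the results. With the block and the GC and length correction there was 1 fall with RA, 4 genes lower than RA in PB+RA in place of 2 (COL3A1 and COL4A1 added), and 2 interactions above 0 (COL23A1 and COL18A1).

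Falls with RA were 1 (COL6A6) with DESeq2, with the GC and length correction, and in replicates 1 and 2 or 3 and 4 alone. Falls with PB were 1 without the low-count filter (COL8A2, not tested otherwise) and 1 in replicates 3 and 4 alone (COL8A1). Genes lower than PB in PB+RA were 2 in replicates 1 and 2 alone (COL14A1 and COL6A6) and 1 with no fold minimum (COL7A1), and those lower than RA were 1 in replicates 1 and 2 alone (COL7A1). Interactions above 0 were 1 in replicates 1 and 2 (COL23A1) and 3 in replicates 3 and 4 (COL13A1, COL23A1, COL6A6), and those below 0 were 2 in replicates 3 and 4 (COL7A1, COL9A2). The cause was not tested. Fits within a replicate set hold 2 samples per group.

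Leaving out each library in turn gave 11 to 13 rises with PB, 13 to 14 rises and 0 to 1 falls with RA (1 without DMSO replicate 2, DMSO replicate 3 or RA replicate 1), 17 to 18 rises with PB+RA, 9 to 13 higher than PB, 7 to 9 higher and 2 lower than RA, 20 to 23 that differed among groups and 13 to 16 among replicate numbers. Genes under about 1 CPM rest on few counts, and overlaps on the opposite strand limit COL4A1, COL4A2, COL9A3, COL18A1 and COL19A1.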
